A study of Mus musculus with 2 samples.

Results

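Gastrulation mesoderm and endoderm factors are here the 9 genes T, Eomes, Tbx6, Mesp1, Mixl1, Gsc, Gata4, Gata6 and Cer1, chosen by symbol in the deposited count table. All 9 of 9 were found, each as 1 gene model, among 30744 symbols in 32958 models. They were followed in 2 RNA-seq libraries, 1 from a normal kidney and 1 from a kidney tumour. The normal kidney carries the genotype label WT and received no doxycycline. The tumour kidney carries the label Tet-OSKM/mPer2-luc and came from a doxycycline-treated animal. Both are labelled as C57BL/6 x DBA/2 F1. The growth protocol, given for both libraries, describes chimeras grown from injected Rosa26-M2rtTA TetO-OSKM mPer2-luc embryonic stem cells. A chimeric organ holds cells of the injected line beside cells of the host, and the labels do not give their shares, the age of the animals or the duration of doxycycline. Rosa26 is a broadly active locus, so the doxycycline-controlled activator M2rtTA is not restricted to a kidney cell type. OSKM names the reprogramming set of Oct4 (encoded by Pou5f1), Sox2, Klf4 and c-Myc, and mPer2-luc reports activity of the clock gene Per2 by luciferase.

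During gastrulation, epiblast cells pass through the primitive streak and leave it as mesoderm or definitive endoderm. Nodal, Wnt and Bmp signals switch on a small set of transcription factors there: the T-box factors T and Eomes, the homeobox factors Mixl1 and Gsc, and the basic helix-loop-helix factor Mesp1. Tbx6 acts later in paraxial mesoderm, Gata4 and Gata6 act in endoderm and heart mesoderm, and Cer1 is a secreted antagonist that restrains Nodal and Bmp. Adult kidney has no gastrulating cells, and Gata6 is the member best known from adult tissue, for example from vascular smooth muscle.

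Most of these factors were near or at 0 reads in the normal kidney and present at low to moderate levels in the tumour. The 9 genes together had 54 normal reads, 36 of them from Gata6, and 1894 tumour reads. T, Eomes, Mixl1, Gsc, Gata4, Gata6 and Cer1 were higher in the tumour library. Tbx6 had 12 and 7 reads, and Mesp1 had 0 reads in both libraries. A gene was called higher or lower where its ratio of scaled counts was at least 2-fold and the 95% counting interval excluded 1. It had to hold at least 20 reads over both libraries, and scaling was by the trimmed mean of M-values (TMM). By that rule 7 of 9 members were measured and 7 were called higher, 0 lower and 0 neither, whereas 31.2% of 16326 measured genes were called higher and 28.0% lower. Only Gata6 would have passed the read minimum on its normal reads, so the other 6 measured members passed only through the tumour library. The count is therefore a description. Each group is 1 library, so every ratio compares these 2 libraries, has no replicate check and carries no p-value. In bulk tissue, more cells of a kind and more RNA per cell cannot be told apart.

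**Figure D1:**
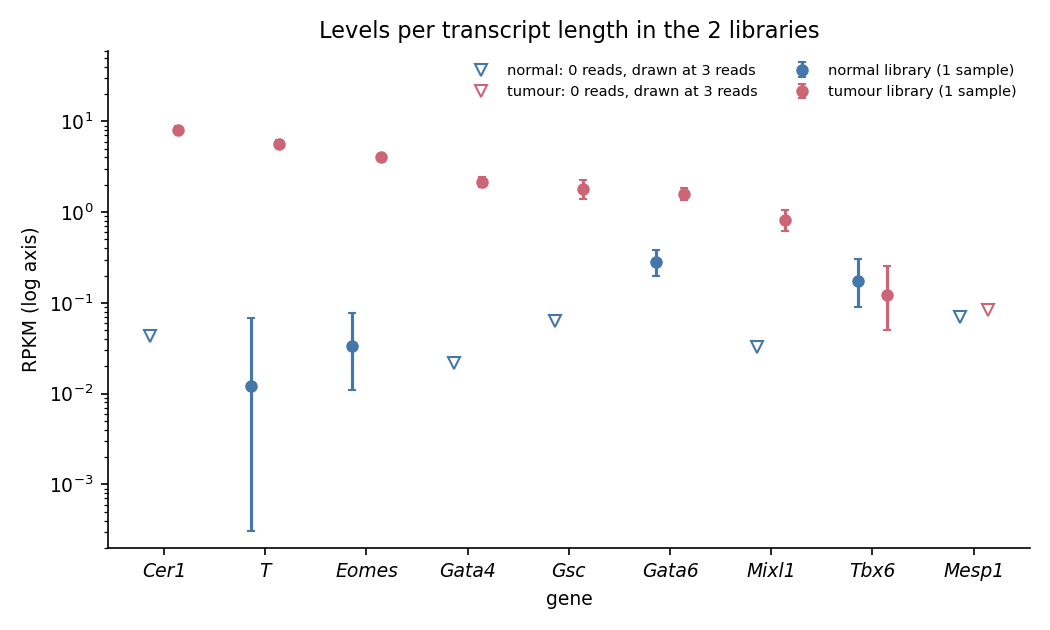
Level of each factor as deposited RPKM (reads scaled to transcript length and library total, log axis) in the normal (blue) and tumour (red) library, ordered by tumour level. Points are single libraries with exact Poisson 95% intervals for counting error, and open triangles mark 0 reads, drawn at the level of 3 reads. Cer1 is highest in the tumour at 8.02 RPKM, Tbx6 overlaps between the libraries, and Mesp1 has no read in either.

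The deposited table gives 40408775 reads as the total of the normal and 33169818 as that of the tumour library, of which 29258428 and 20836819 lay on exons of the gene models. A count of 3 reads equals 0.124 CPM (TMM-scaled counts, as a share of library size) for the normal library and 0.119 CPM for the tumour library, the limit that a count of 0 allows. Against 0 reads a fold was set with this floor and is written as "at least", so a gene with 0 reads can show a smaller fold than one with 1 read. Kidney tubule genes matched the tissue label of the normal library, with 8 of 8 list members lower in the tumour. Slc34a1, the phosphate transporter of the proximal tubule, had 135468 and 91 reads, and Umod, the uromodulin of the thick ascending limb, had 103267 and 652. Slc5a2 (18807 and 30 reads), Slc12a3 (20519 and 167), Aqp2 (1605 and 40) and Lrp2 (273491 and 15414) were lower too. All 10 epiblast markers were higher in the tumour, 9 of them with under 20 normal reads. Among them was Pou5f1 with 0 and 11358 reads, whose count does not separate transgene from endogenous transcripts. Others were Lin28a (1 and 12152 reads), Nanog (1 and 4507), Pou3f1 (0 and 1188) and Fgf5 (0 and 911).

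Among the T-box factors, T and Eomes were higher in the tumour and Tbx6 was not called. T (chromosome 17, 8434423 to 8442496, plus strand), also known as Brachyury, specifies posterior mesoderm and notochord. It had 1 normal and 385 tumour reads, or 0.0415 and 15.2 CPM. That is a ratio of 367 with a counting interval of 65.5 to 14544, an interval that wide because it rests on a single normal read. The level of T per length rose from 0.0121 to 5.70 RPKM, above 64.5% of the symbols with reads in the tumour library.

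Eomes (chromosome 9, 118478189 to 118486132, plus strand) drives endoderm and cardiac mesoderm from the streak and is also made in trophoblast stem cells, natural killer and cytotoxic T cells and cortical progenitors. It had 5 normal and 495 tumour reads, the most tumour reads of the 9 genes, or 0.207 and 19.6 CPM. The ratio was 94.4 (interval 40.2 to 292), and the level per length was 0.0334 RPKM (normal) and 4.02 RPKM (tumour). Markers of the other cells that make Eomes moved as follows. The 8 markers of T and natural killer cells summed to 2.99 CPM (normal) and 0.712 CPM (tumour), and 4 of them (Ncr1, Nkg7, Gzmb and Prf1) had 0 tumour reads. Cd8a was the 1 measured, with 24 and 8 reads, 3.14-fold lower (1.37 to 8.10). The 8 trophoblast markers summed to 30.6 and 77.1 CPM. The placental genes Tpbpa and Prl3d1 had 0 reads in both libraries, and the trophoblast factor Cdx2 had 0 and 4. Of the 8, 5 were measured, 3 higher and 2 lower. The trophoblast factor Tfap2c had 0 and 217 reads (at least 69.0-fold higher), Ascl2 had 2 and 26 (12.4-fold, 3.10 to 108) and Esrrb, also a pluripotency factor, 637 and 1694 (2.54-fold, 2.31 to 2.78). Elf5 had 22 and 4 reads (5.77-fold lower, 1.96 to 23.0) and Gcm1 had 76 and 5 (15.9-fold lower, 6.54 to 50.5). The 8 genes of the neural progenitor list, which include the neuronal Tubb3 and Dcx, summed to 0.954 CPM (normal) and 88.6 CPM (tumour). In the tumour Tubb3 held 41.1 CPM of that sum and Dcx 13.1 CPM. Of the 6 measured, 5 were higher. They included Tubb3 (0 and 1038 reads), Dcx (1 and 330), Sox1 (0 and 461) and Neurod4 (0 and 45), whereas Neurog2 (22 and 15) was neither. The part of trophoblast and of neural cells in the Eomes level was not tested.

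Tbx6 (chromosome 7, 126781483 to 126785548, plus strand), which directs cells of the tail bud to paraxial mesoderm over a neural fate, had 12 normal and 7 tumour reads. These 0.498 and 0.277 CPM make a ratio of 0.556 with an interval of 0.186 to 1.53, so a difference was not detectable at this depth. With 19 reads in all it stood just under the read minimum.

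Other T-box genes gave a mixed picture. Of 14 further members of the family, 5 were measured, 4 of them higher and 1 lower, with a median log2 ratio of 3.05 against 0.08 over all measured genes. That median is the value of Tbx20, which had 0 normal reads and is set by the floor, and it ran from 2.01 to 3.61 over the alternative settings. Mga, a T-box and Max-binding repressor of germ line genes, had 3540 and 12959 reads and was 3.49-fold higher (3.36 to 3.63). Tbx3, which is also made in embryonic stem cells, had 56 and 564 reads and was 9.61-fold higher (7.29 to 12.9). Tbx15 had 1 and 39 reads, and the heart factor Tbx20 had 0 and 26. Tbx2 was the lower member, with 1182 and 220 reads, 5.63-fold lower (4.87 to 6.53). The other 9 had fewer than 20 reads over both libraries.

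Mesp1 (chromosome 7, 79792241 to 79793590, minus strand), an early marker of cardiac mesoderm as it leaves the streak, had 0 reads in both libraries. Its short transcript of 1075 bases makes the floor less strict than for the others: 3 reads would be 0.0691 RPKM (normal) and 0.0841 RPKM (tumour). No fold was taken. Mesp2, its paralog, which acts in somite formation, had 0 and 8 reads.

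The homeobox factors Mixl1 and Gsc were both at 0 reads in the normal kidney. Mixl1 (chromosome 1, 180693048 to 180697034, minus strand), which acts in the streak on the way to endoderm, had 62 tumour reads, or 2.45 CPM, at least 19.7-fold higher (lower limit of the counting interval 15.6). Gsc (chromosome 12, 104471209 to 104473236, minus strand), the goosecoid gene of the organiser and prechordal plate, had 70 tumour reads, or 2.77 CPM, at least 22.3-fold higher (lower limit 17.6). With similar reads but a transcript of 1171 against 2287 bases, Gsc stood at 1.80 RPKM and Mixl1 at 0.817 RPKM in the tumour.

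**Figure D2:**
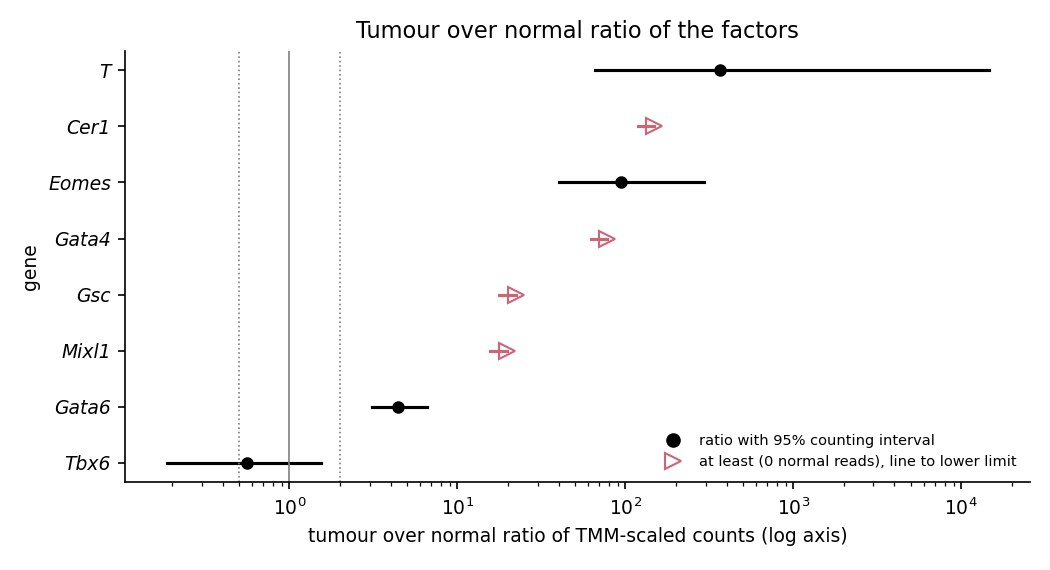
Tumour over normal ratio (TMM-scaled counts, log axis) for the 8 factors with reads. Black points carry 95% counting intervals. Red triangles are folds set with the floor for genes with 0 normal reads, with a line to the lower limit of the interval. The grey line marks no difference and dotted lines mark 2-fold. T has the highest plotted ratio at 367, a rank that depends on the floor. With a floor of 1 count Cer1 exceeds T (log2 ratios of 8.79 and 8.52). Among the black points T has the widest interval, Gata6 lies at 4.45, and the interval of Tbx6 includes 1. The red triangles have no upper limit.

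Promoter sequences are shown for T, Eomes and Cer1, the 3 members with the highest tumour level per length, beside Tbx6, a T-box member that was not called. RefSeq promoters (build GRCm38.p6) matched 6 of 9 members by symbol; Gata4, Gata6 and Mixl1 are named only. The 250 bases before the start site were searched on both strands. The motif searched for TCF/LEF factors, which act in the Wnt pathway, was CTTTGAA. A variant of it, CTTTGAT, was searched too. For the TATA box it was TATAAA. For GATA factors the letters were AGATAA, for T-box factors AGGTGTGA, and for FOXH1, an effector of Nodal, AATCCACA. Each sequence is given 5′ to 3′ on the strand of its gene, with matches in capitals. The windows are chr17:8434173-8434422 (plus strand) for T, chr9:118477939-118478188 (plus) for Eomes, chr4:82885152-82885401 (minus) for Cer1 and chr7:126781233-126781482 (plus) for Tbx6. None of these 4 windows overlaps the GENCODE gene of its member, whereas 198 of the 250 bases for Mesp1 and 94 of those for Gsc lie inside the GENCODE gene, which starts further upstream.
T: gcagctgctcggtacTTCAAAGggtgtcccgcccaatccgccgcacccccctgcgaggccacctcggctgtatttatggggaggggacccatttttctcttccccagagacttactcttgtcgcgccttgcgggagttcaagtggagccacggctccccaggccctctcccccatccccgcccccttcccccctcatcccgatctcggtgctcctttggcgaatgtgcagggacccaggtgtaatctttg
Eomes: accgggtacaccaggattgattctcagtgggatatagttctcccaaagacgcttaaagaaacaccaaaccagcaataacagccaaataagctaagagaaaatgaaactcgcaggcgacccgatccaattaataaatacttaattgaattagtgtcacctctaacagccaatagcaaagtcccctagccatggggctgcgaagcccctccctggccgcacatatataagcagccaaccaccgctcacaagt
Cer1: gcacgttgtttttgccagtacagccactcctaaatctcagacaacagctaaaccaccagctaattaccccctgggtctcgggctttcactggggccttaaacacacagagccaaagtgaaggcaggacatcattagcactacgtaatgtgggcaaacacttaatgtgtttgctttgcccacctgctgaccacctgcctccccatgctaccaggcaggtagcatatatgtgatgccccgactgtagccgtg
Tbx6: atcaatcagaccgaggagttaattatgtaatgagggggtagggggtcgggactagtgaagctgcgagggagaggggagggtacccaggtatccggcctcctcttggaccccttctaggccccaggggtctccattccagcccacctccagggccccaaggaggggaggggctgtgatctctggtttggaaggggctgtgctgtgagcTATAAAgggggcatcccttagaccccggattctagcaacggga

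T and Mesp1 both held CTTTGAA on the strand opposite to the gene (printed as TTCAAAG), at 235 to 229 bases before the start of T and 73 to 67 bases before that of Mesp1. Of all 32851 promoters of this length, 4.46% held that motif on either strand. Mesp1 also held CTTTGAT at 31 to 25 bases before its start, a motif found in 3.21% of promoters. By the GENCODE model both Mesp1 matches lie inside the gene, not before it. TATAAA was found in Gsc at 164 to 159 bases and in Tbx6 at 43 to 38 bases before the start, and in 12.4% of all promoters. The 6 member windows held 0 matches to AGATAA, AGGTGTGA or AATCCACA, which 9.99%, 1.12% and 0.718% of all promoters held. The Eomes and Cer1 windows held none of the motifs searched. A match is a description of the sequence.

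The GATA factors differed in their normal level. Gata4 (chromosome 14, 63198915 to 63245260, minus strand), a factor of endoderm, heart and gonad, had 0 normal and 244 tumour reads, or 9.65 CPM, at least 77.6-fold higher (lower limit 62.6). Gata6 (chromosome 18, 11052510 to 11085635, plus strand), its close relative in the same tissues, had 36 and 168 reads, or 1.49 and 6.65 CPM. Its ratio of 4.45 (3.09 to 6.57) was the smallest among the 7 members called. In the tumour the pair stood close together, at 2.17 RPKM for Gata4 and 1.59 RPKM for Gata6. A model of 1010001N08Rik on the opposite strand overlaps the start of Gata6 by 58 bases and had 4 and 9 reads. The strand setting used in counting was not given in the sources used here.

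Of 6 further genes (Gata1, Gata2, Gata3, Gata5 and the cofactors Zfpm1 and Zfpm2) 4 were measured, with 0 higher, 2 lower and 2 neither (median log2 ratio -1.41). Gata2, of blood and endothelial cells, had 203 and 19 reads and was 11.2-fold lower (6.99 to 19.0). Gata3, which is made in the collecting duct, had 103 and 20 reads and was 5.40-fold lower (3.32 to 9.20). Zfpm1 (89 and 112 reads) and Zfpm2 (41 and 33 reads) were neither, and Gata1 (0 and 11 reads) and Gata5 (16 and 1) were under the read minimum.

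Markers of other cells that make Gata6 or Gata4 are set beside these values. The 9 smooth muscle and mesangial markers summed to 250.5 CPM (normal) and 179.7 CPM (tumour), with 2 higher, 3 lower and 4 neither. Their median log2 ratio was -0.26, and 0.30 with plain CPM. Myh11, the smooth muscle myosin, was 5.61-fold lower (4.79 to 6.59), whereas Cnn1, calponin, was 7.90-fold higher (4.83 to 13.7). Rgs5, of pericytes, had 687 and 81 reads (8.89-fold lower, 7.05 to 11.3), Myocd had 5 and 16 (3.05-fold higher, 1.07 to 10.7), and the smooth muscle actin Acta2 had 631 and 947 and was neither. The 8 adrenal cortex markers summed to 1.66 and 2.14 CPM, and the steroid enzyme genes Cyp11b2 and Cyp21a1 had 0 reads in both libraries. Star, the 1 measured, had 39 reads in each. The part of smooth muscle cells in the Gata6 level was not tested.

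Cer1 (chromosome 4, 82881751 to 82885151, minus strand), made by anterior visceral and definitive endoderm, had 0 normal and 463 tumour reads, or 18.3 CPM, at least 147-fold higher (lower limit 119). At 8.02 RPKM it had the highest level per length of the 9 genes in the tumour, above 71.5% of symbols with reads there. Of the 12630 symbols without a normal read, 68 (0.538%) had more tumour reads than Cer1. The same count was 119 symbols for Gata4, 286 for Gsc and 318 for Mixl1. Of these 12630 symbols 23.6% had any tumour read and 2.95% at least 50, so these 4 factors were in the upper end of that group. Mesp1, the remaining member without a normal read, had 0 tumour reads and was at its lower end.

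**Figure D3:**
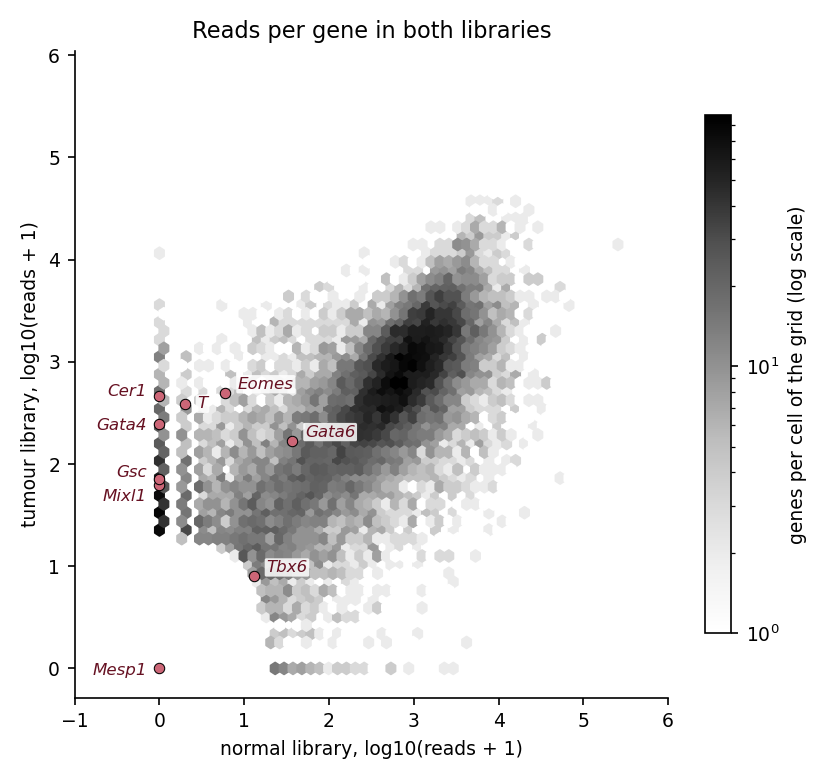
Reads in the tumour against reads in the normal library, both as log10(reads + 1), for the 16326 genes with at least 20 reads over both (grey cells, darker for more genes) with the 9 factors as red points. Cer1, Gata4, Gsc and Mixl1 lie on the left edge at 0 normal reads, Gata6 lies inside the main cloud, and Tbx6 and Mesp1 lie below the read minimum.

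Within the tumour the factors spread widely in level. Ordered by RPKM they were Cer1 (8.02), T (5.70), Eomes (4.02), Gata4 (2.17), Gsc (1.80), Gata6 (1.59), Mixl1 (0.817), Tbx6 (0.124) and Mesp1 (0). Neighbours were compared by the ratio of reads per base, with intervals for counting error. Cer1 exceeded T by 1.41-fold (1.23 to 1.62), T exceeded Eomes by 1.42-fold (1.24 to 1.62), and Eomes exceeded Gata4 by 1.85-fold (1.59 to 2.17). Gata4 and Gsc (ratio 1.21, interval 0.921 to 1.60) and Gsc and Gata6 (1.13, 0.845 to 1.51) did not differ beyond counting error. Gata6 exceeded Mixl1 by 1.94-fold (1.445 to 2.65), and Mixl1 exceeded Tbx6 by 6.61-fold (3.02 to 17.1). In the normal library the order was Gata6 (0.280 RPKM), Tbx6 (0.174), Eomes (0.0334) and T (0.0121), and only the step from Tbx6 to Eomes exceeded counting error (5.21, 1.71 to 18.9).

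Several genes of the list of streak signals stood above every factor in tumour RPKM. The ligands Wnt3 (0.611 RPKM) and Wnt3a (0.252 RPKM) stood below Mixl1 (0.817 RPKM). All 10 epiblast markers were higher in the tumour too, and the part of epiblast cells in the signal levels was not tested. Of 24 genes of the Nodal, Wnt, Bmp and Fgf signals and their transducers, 15 were higher in the tumour, 3 lower and 6 neither. The median log2 ratio was 4.13. That median is partly set by the floor, since 7 of the 24 had 0 normal reads. Of the 15 higher genes, 13 had under 20 normal reads and so passed the read minimum only through the tumour library. The same holds for 2 of 4 higher genes in the T-box list, 8 of 9 in the organiser list, 5 of 6 in the definitive endoderm list and 3 of 3 in the visceral endoderm list, and for 2040 of the 5099 genes higher in all. The counts and medians of these lists are therefore descriptions. Tdgf1, the Nodal co-receptor Cripto, had 0 and 7522 reads (at least 2392-fold), the Nodal antagonist Lefty2 had 0 and 3554 (at least 1130-fold), and Gdf3, a ligand of the Nodal family, had 2 and 1533 (731-fold, 202 to 6043). Nodal itself had 4 and 1401 reads (334-fold, 130 to 1228). In tumour RPKM, Nodal stood at 20.2 and Tdgf1 at 118, so that Cer1 was at 39.7% of the Nodal level, T at 28.2%, Eomes at 19.9% and Mixl1 at 4.05%. Against Pou5f1, at 254 RPKM, Cer1 was at 3.16% and T at 2.24%. That Pou5f1 level does not separate transgene from endogenous transcripts.

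Smad2, Smad3, Smad4, Acvr1b, Acvr2a and Pcsk6 were the 6 signal genes called neither, and with plain CPM Smad2 and Smad4 passed 2-fold (log2 ratios of 1.12 and 1.10). The activin receptor gene Acvr2b had 124 and 976 reads and was 7.51-fold higher (6.22 to 9.13). On the Wnt side, the streak ligands Wnt3 (0 and 63 reads) and Wnt3a (0 and 23) were higher at low levels, 0.611 and 0.252 RPKM in the tumour. The Wnt target Axin2 was 16.0-fold higher (11.4 to 23.2), and higher levels were also found for the nuclear effectors Lef1 (109-fold, 49.6 to 297) and Tcf7 (108-fold, 46.1 to 334). Sp5, a direct Wnt target in the streak, was 3.05-fold lower (2.25 to 4.19), Bmp4 was 4.24-fold lower (3.61 to 4.99) and the Nodal convertase Furin 5.41-fold lower (4.99 to 5.86). These 3 were the lower members, with normal and tumour reads of 169 and 58 for Sp5, 772 and 191 for Bmp4, and 3776 and 732 for Furin.

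**Figure D4:**
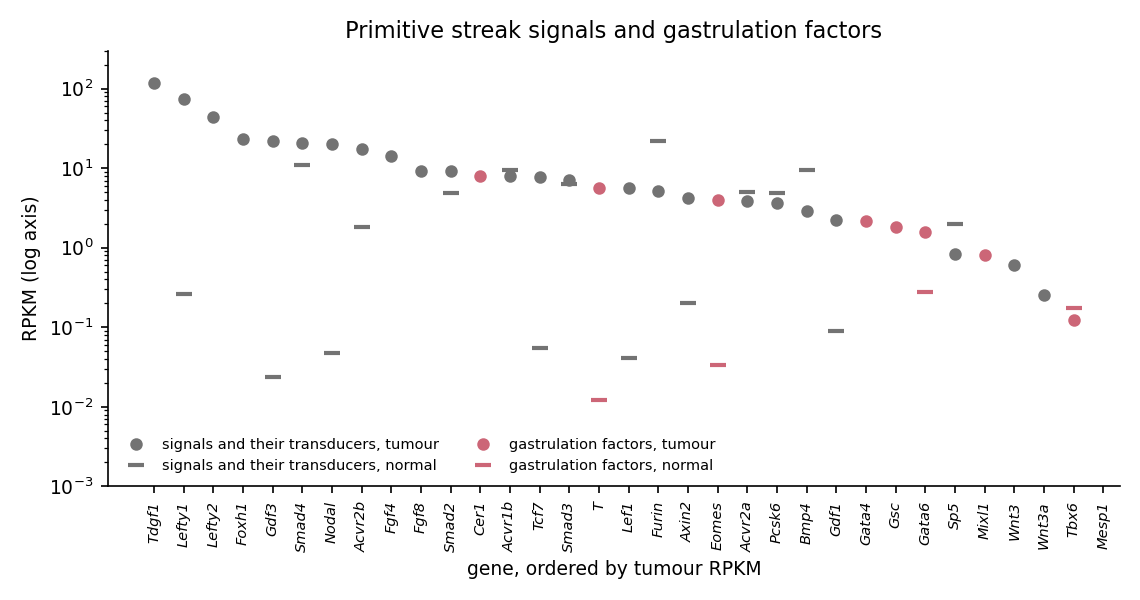
Deposited RPKM on a log axis of the 24 streak signals and transducers (grey) and the 9 gastrulation factors (red), ordered by tumour level. Circles are the tumour and dashes the normal library, 1 sample each, and a gene with 0 reads has no mark. Tdgf1 is highest at 118 RPKM in the tumour, Cer1 is the highest factor at 8.02 RPKM, and Furin, Bmp4 and Sp5 have the normal dash above the tumour circle.

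Nascent and posterior mesoderm genes were mixed in their calls. Of 13 genes 7 were measured, of which 4 were higher, 1 lower and 2 neither. Their median log2 ratio was 2.05, and all 4 higher genes passed the read minimum only through the tumour library. Nkx1-2, a homeobox gene of the caudal epiblast, had 0 and 84 reads (at least 26.7-fold), Cdx1 had 0 and 39 (at least 12.4-fold), Evx1 had 0 and 20 (at least 6.36-fold), and Snai1 had 12 and 52. The receptor genes Pdgfra (2068 and 1346 reads, 6.20 RPKM in the tumour) and Aplnr (97 and 92 reads) were the 2 called neither. Msgn1, a target of Tbx6 in presomitic mesoderm, had 0 reads in both libraries, as had the segmentation clock genes Hes7 and Ripply2. Kdr, a receptor of endothelial and early mesoderm cells, was 15.8-fold lower (13.9 to 18.1), and 4 of 7 endothelial markers were lower too, among them Tek (2293 and 292 reads) and Tie1 (1077 and 157). Pecam1 (1826 and 1466) and Cdh5 (637 and 363) were neither, and Vwf (53 and 155) was higher. Of 13 genes of paraxial mesoderm and somites, 10 were measured: 5 higher, 2 lower and 3 neither (median log2 ratio 2.12). The higher genes were Ripply1 (1 and 50 reads), Pax3 (0 and 120), Tcf15 (4 and 155), Meox2 (0 and 63) and Dll3 (0 and 58), all 5 with under 20 normal reads. Pax3 is also made in neural crest and dorsal neural tube. The lower genes were Foxc1 (2.69-fold, 2.03 to 3.605) and Foxc2 (4.48-fold, 2.29 to 9.58), and Foxc1 was short of 2-fold with plain CPM and RPKM + 0.1 (log2 ratios of -0.87 and -0.95).

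Genes of cardiac mesoderm, downstream of Mesp1 and the GATA factors, had 19 or fewer normal reads apart from Mef2c. Of 13 genes 8 were measured, 7 higher and 1 lower (median log2 ratio 2.84), and all 7 higher genes passed the read minimum only through the tumour library. The cardiac actin Actc1 had 0 and 62 reads (at least 19.7-fold), the progenitor factor Isl1 0 and 26 (at least 8.27-fold), and the cardiac myosin Myh6 19 and 164 (8.23-fold, 5.11 to 14.0). Myl4 had 13 and 30 reads (2.20-fold, 1.11 to 4.60). Nkx2-5, the central cardiac homeobox factor, had 0 and 3 reads. Mef2c was the lower gene, with 391 and 120 reads (3.42-fold, 2.78 to 4.23).

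Organiser and axial mesoderm genes, the domain of Gsc, were higher for 9 of 11, lower for 1 and neither for 1 (median log2 ratio 2.69). Otx2, which also marks primed epiblast and anterior neural cells, had 0 and 2039 reads (at least 648-fold). Foxa2, of node, floor plate and endoderm, had 0 and 273 reads (at least 86.8-fold) and 3.98 RPKM in the tumour, close to Eomes at 4.02 RPKM. The Wnt antagonist Dkk1 had 5 and 223 reads (42.5-fold, 18.0 to 132), and the node gene Noto had 0 and 42. Lhx1, which is also a kidney tubule factor, was 3.40-fold lower (2.65 to 4.41). Chrd, the Bmp antagonist chordin, had 138 and 189 reads and was neither.

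Genes of definitive endoderm and foregut were mixed. Of 12 genes 9 were measured: 6 higher, 1 lower and 2 neither (median log2 ratio 1.89). Besides Foxa2, the higher genes included the claudin Cldn6, with 13 and 1907 reads (140-fold, 81.6 to 263), and Foxa3, with 3 and 53 (16.9-fold, 5.46 to 84.3). The lower gene was Hnf4a, a proximal tubule factor in the adult, at 25140 and 290 reads (90.9-fold, 80.9 to 102). Sox17, a defining factor of endoderm that endothelial cells also make, had 138 and 195 reads and was neither, with a ratio of 1.35 (1.08 to 1.69).

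For extraembryonic endoderm, where Gata4, Gata6 and Cer1 are also made, the marker lists were mixed. Of 12 parietal endoderm genes 3 were higher, 3 lower and 6 neither (median log2 ratio 0.24). The higher genes were the laminin chains Lamc1 (4.86-fold, 4.62 to 5.11) and Lama1 (4.43-fold, 4.18 to 4.69) and the matrix protein Sparc (2.53-fold, 2.41 to 2.64). Pth1r (28.2-fold, 25.5 to 31.3) and Dab2 (7.11-fold, 6.76 to 7.49), which kidney tubules make, were lower, as was Thbd. Sox7 had 62 and 69 reads and was neither. Of 10 visceral endoderm genes 9 were measured: 3 higher, 5 lower and 1 neither (median log2 ratio -3.31). Dkk1, Apoa1 and Hhex were the higher genes, with log2 ratios of 5.41, 1.89 and 1.89. The alpha-fetoprotein gene Afp had 48 and 65 reads and was neither. Lower were Cubn (50336 and 5318 reads), Apob (33182 and 1572), Ttr (4192 and 52), Amn (1967 and 117) and Apoa4 (340 and 32). These genes had reads in the normal kidney, so their ratios and the list median do not describe visceral endoderm alone.

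**Figure D5:**
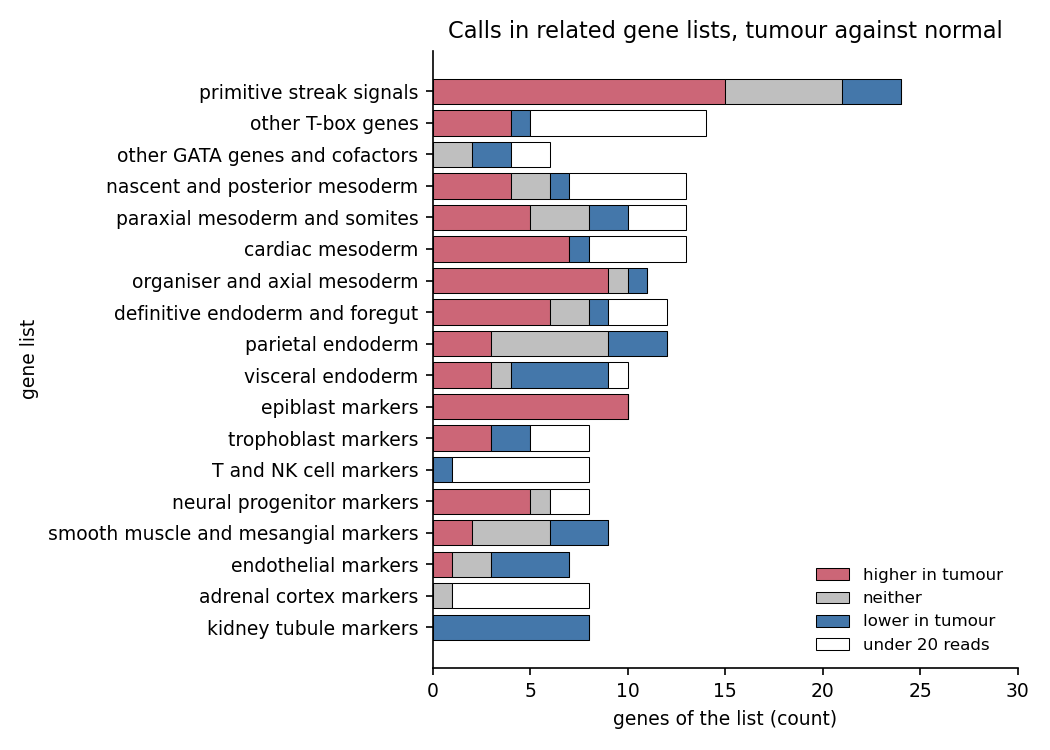
Number of genes in each related list that were higher (red), neither (grey) or lower (blue) in the tumour library, or had under 20 reads over both libraries (white); the x axis counts genes. Epiblast markers are red for 10 of 10, kidney tubule markers blue for 8 of 8, and the mesoderm and endoderm lists are mixed, with many white genes in the T-box, nascent mesoderm and cardiac lists.

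The genes nearest to the leading factors over both libraries were found from the distance in log2(RPKM + 0.1), which with 2 libraries says only that both levels were alike. For Cer1 they were Serpina3m (0 and 449 reads), Cthrc1 (0 and 320) and Rpp25 (0 and 344), and 142 measured genes lay within a distance of 1. For T they were Gm2381 (2 and 726 reads), Xist (5 and 3710) and Gpa33 (1 and 389), and 216 genes lay within that distance.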

How the data were processed

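Stranded libraries were made from ribosome-depleted total RNA, per the labels' protocols. The authors deposited read counts over exons of UCSC knownCanonical models and, per the file headers, RPKM values, which equalled the count per transcript length and header total within 1.8e-06. Tools listed in the submitters' processing notes are STAR 2.5.0c, HOMER and bcl2fastq, without roles, with build mm10; handling of multiply mapped reads was not given in the sources used here. Where models shared a symbol, the one with most reads was kept. TMM factors (edgeR 4.0.16, R 4.3.3; 0.824 normal, 1.21 tumour) scaled the counts. Ratios carry exact conditional (Clopper-Pearson) 95% intervals, which cover counting error only, since PCR copies are not told apart. Simulated counts used to check the intervals held counting error only, so they do not test the intervals against other variation. All 9 models overlapped their GENCODE M21 gene on the same strand. The other computations used Python 3.11.15 with scipy 1.17.1.

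The members and the 18 gene lists (194 entries, some genes in more than 1 list; 1 further entry is not reported here) were chosen with earlier results of these data known. The rule for named genes took all members, the 3 largest and 2 smallest ratios of each list, the nearest genes and overlapping models; others named were chosen after their values were seen. Alternatives were other scalings (DESeq2 1.42.0 size factors, plain CPM, header totals), RPKM with a pseudocount of 0.1 or 0.01, a floor of 1 count, summed models, other read minimums (none, or 100) and a 4-fold threshold.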

Additional observations from a re-analysis of the deposited data

How the results depend on the processing

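The member ratios, member counts, list totals and order of levels gave 88 values under the alternatives. All 88 kept their direction and call, or stayed within 1.5 times the count. Part of these could not have changed, so the tally is not a measure of robustness. Each member has 1 gene model, so summing models left its ratio as it was. A floor of 1 count does not act on T, Eomes, Tbx6 and Gata6, which had reads in both libraries. The order of levels was compared only with reads per base scaled by library, which cannot reorder genes within a library. The number of members called higher was 7 under every alternative except a minimum of 100 reads, where it was 5. Log2 ratios over the alternatives ran from 5.69 to 9.08 for T, 4.95 to 7.12 for Eomes, 3.20 to 6.37 for Mixl1, 4.25 to 7.50 for Gsc, 4.51 to 7.86 for Gata4, 6.34 to 9.65 for Cer1, 2.15 to 2.71 for Gata6 and -0.85 to -0.29 for Tbx6. List medians (log2) ran from 3.40 to 4.68 for the signals, 1.63 to 2.61 for nascent, 1.78 to 2.91 for paraxial and 1.70 to 3.39 for cardiac mesoderm, 1.79 to 3.24 for the organiser and 1.88 to 2.45 for definitive endoderm. For genes with 0 or few normal reads the size therefore rests on the floor or pseudocount. Of all measured genes, plain CPM called 42.1% higher, header totals 37.9% and RPKM + 0.1 36.4%, as the median log2 ratio of all genes moved up by 0.56, 0.35 and 0.32; of all calls, 67.6%, 62.5% and 62.6% were then higher, against 52.8%. Among list genes, Shh and Myocd lost their call with RPKM + 0.1, Itga8 and Flt1 with plain CPM, header totals and RPKM, and Cd8a and Foxc1 with plain CPM and RPKM + 0.1. Smad2, Smad4, Acta2, Prox1 and Col4a1 passed 2-fold with plain CPM, the last pair also with header totals. No paired analysis was possible because each group holds 1 library. Depth limits Tbx6 and Mesp1.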
